A study of Mus musculus with 6 samples.

Results

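Expression of the enamel matrix and ameloblast genes was examined in the dental pulp of Mmp13-/- mice and their WT controls. The 6 genes Amelx, Ambn, Enam, Amtn, Odam and Klk4 were taken by symbol from a table of 53342 genes, whatever their values, and all 6 were found. The study asked what the loss of MMP13, a collagenase of mineralizing tissues, changes in the dentin-pulp complex. RNA sequencing was done on pulp of male C57BL/6 mice aged 3 months, in 3 WT libraries (replicates 2, 4 and 5) and 3 Mmp13-/- libraries (replicates 1, 2 and 6). The Mmp13-/- mice were homozygous and carried the deficiency in every tissue, and no other allele and no treatment is named for either genotype. The study's methods describe 3 independent biological samples per genotype, and how many animals gave pulp to each was not given in the sources used here. The tooth is named in different ways. The study's methods name incisors, the growth notes of both genotypes name molars, and the titles name a molar for WT and no tooth for Mmp13-/-, so a difference in tooth type and the genotype cannot be told apart.

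Enamel is laid down by ameloblasts, the inner layer of the epithelium that covers the forming crown, and not by the pulp. In the secretory stage these cells export amelogenin, ameloblastin and enamelin together with the protease MMP20, and in the maturation stage they make KLK4, which removes the remaining matrix, and place amelotin and ODAM at the enamel surface. A mouse molar loses its ameloblasts when it erupts, while the mouse incisor grows throughout life and keeps ameloblasts of every stage. Odontoblasts, the dentin-forming cells at the pulp margin, are known to express some enamel matrix genes at a low level.

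Odam, Amtn, Ambn and Enam lie on the plus strand of chromosome 5 within 621.0 kb, in a cluster of genes for secreted calcium-binding phosphoproteins (GRCm38). Odam spans 87885029 to 87894174, Amtn 88376108 to 88385916, Ambn 88455991 to 88468531 and Enam 88487975 to 88506049. Ambn and Enam are the closest pair, 19.4 kb apart, with Amtn 70.1 kb before Ambn and Odam 481.9 kb before Amtn. Amelx is on the minus strand of chromosome X, from 169176114 to 169187200, inside an intron of Arhgap6 on the opposite strand, and shares 0 exon bases with it. Klk4 is on chromosome 7, from 43881160 to 43885804, among the other kallikrein genes. All 6 are protein-coding.

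The 160 bases before the start sites of the genes that share a motif are shown here to place it, from RefSeq on GRCm38.p6. Each sequence is read 5′ to 3′ along the gene's strand and ends at the base before the start site, with matches to CCAAT on either strand (CCAAT or ATTGG) and to TATAAA in capitals.
Amelx, chrX:169187210-169187369, minus strand: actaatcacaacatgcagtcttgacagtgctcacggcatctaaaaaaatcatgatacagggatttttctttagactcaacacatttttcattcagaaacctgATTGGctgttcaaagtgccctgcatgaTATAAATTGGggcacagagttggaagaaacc
Ambn, chr5:88455831-88455990, plus strand: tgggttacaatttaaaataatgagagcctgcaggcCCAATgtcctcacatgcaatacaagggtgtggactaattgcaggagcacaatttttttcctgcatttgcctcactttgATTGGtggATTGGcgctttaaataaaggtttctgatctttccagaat
Enam, chr5:88487815-88487974, plus strand: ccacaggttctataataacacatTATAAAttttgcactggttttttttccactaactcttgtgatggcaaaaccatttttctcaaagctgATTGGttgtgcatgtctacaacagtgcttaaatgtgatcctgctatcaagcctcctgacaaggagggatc
Amtn, chr5:88375948-88376107, plus strand: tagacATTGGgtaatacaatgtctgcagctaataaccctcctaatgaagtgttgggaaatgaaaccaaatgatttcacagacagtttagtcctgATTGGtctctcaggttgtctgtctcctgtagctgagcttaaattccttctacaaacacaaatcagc
Odam, chr5:87884850-87885009, plus strand: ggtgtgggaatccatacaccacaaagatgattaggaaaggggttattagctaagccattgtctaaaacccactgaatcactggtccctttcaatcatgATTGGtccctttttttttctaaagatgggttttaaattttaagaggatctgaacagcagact

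The CCAAT motif was found in 5 of the 6 windows of 300 bases (250 before the start site and 50 after) and not in that of Klk4. It was present in 37.4% of 32851 such windows of all genes. Counted from the start site, the first bases of the inverted motifs lay at -58 and -26 in Amelx, -47 and -39 in Ambn, -70 in Enam, -155 and -66 in Amtn and -62 in Odam. Ambn also had a forward motif at -125. TATAAA was found in Amelx, at -31, and in Enam, at -137, against 13.6% of all windows. In Amelx it overlaps a second ATTGG. The Runx core, ACCACA or TGTGGT, was found in the window of Odam alone, against 16.8% of all windows. GGGCGG (or CCGCCC), at 35.7% of all windows, and TAATTA, at 5.3%, were found in 0 of the 6. The windows of the 5 genes held 36.7% to 41.7% G and C, that of Klk4 59.3%, and the median window 52.7%. These matches are a description of the letters and were not tested for use by any factor.

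The libraries held 28442936 to 29980236 estimated counts in WT and 21561420 to 26547121 in Mmp13-/-, and the smallest count of a member in any library was 221 (Klk4 in Mmp13-/- 6). The targeted gene was low where its label said so. Mmp13 had 1069, 1139 and 827 estimated counts in WT 2, 4 and 5, and 10.2, 32.9 and 40.4 in Mmp13-/- 1, 2 and 6 (log2 fold change -4.96 ± 0.46 (SE), adjusted p = 7.67e-05, edgeR). Mmp13-/- 6 stood apart from the other Mmp13-/- libraries, with a chi-square per degree of freedom over genes of 411 and 317 against 41.1 between Mmp13-/- 1 and 2. Odorant and vomeronasal receptor genes, known mainly from the sensory cells of the nose, gave 0.136 to 0.249 counts per kb in WT and 1.61, 1.86 and 4.86 in Mmp13-/- 1, 2 and 6. The members' counts were 36.5 to 180900 times what those rates would give over their exons, with the lowest ratio for Klk4 in Mmp13-/- 6. Of 24534 genes tested, 7381 (30.1%) passed an adjusted p of 0.05 with a change over 2-fold, 20.4% higher and 9.68% lower in Mmp13-/-. Of the called genes 67.8% were higher, and this share was 77.2% with total counts, 81.4% with upper-quartile factors, 84.3% with a correction for GC content and 78.6% with no filter on low counts. The median log2 fold change of all tested genes was 0.10.

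Enamel matrix transcripts were abundant in these pulp libraries. The 6 genes together took 0.437%, 0.170% and 0.142% of all counts in WT 2, 4 and 5, and 0.612%, 0.558% and 0.298% in Mmp13-/- 1, 2 and 6. Ambn ranked between 23 and 86 among all genes by count, Odam between 73 and 250, and Amelx between 46 and 883. Enam ranged more widely, from rank 99 to 5903, Amtn from 342 to 1318 and Klk4 from 6902 to 8622. Because fewer ameloblasts and less RNA per ameloblast give the same value in bulk tissue, the levels below cannot separate them.

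Among the 6 members, Odam alone differed between the genotypes beyond the replicate spread in the main edgeR fit, and it was higher in Mmp13-/-. Which members passed depended on the processing. With edgeR no member was called, that is, 0 of 6 passed an adjusted p of 0.05 with a change over 2-fold, against 30.1% of all tested genes. At any fold 1 of 6 (Odam) passed the adjusted p, against 51.6% of all tested genes (27.3% higher and 24.3% lower), and 3 of 6 had an unadjusted p under 0.05. The log2 fold change was above 0 for 5 members and below 0 for Klk4, with a median of 0.66. With DESeq2, 0 of 6 were called and 1 (Odam) passed the adjusted p. With limma on the deposited log2 values, 2 (Ambn and Enam) were called and 4 passed, Klk4 and Odam besides them. Leaving out WT 2 in edgeR gave 3 called (Amelx, Ambn and Enam) and 5 passing, all but Amtn, while leaving out WT 5 gave 0 passing. The correction for GC content also gave 0 passing. Upper-quartile factors, total counts and subtraction of the receptor-gene rate each gave 2 called and 3 passing. The genotypes' values did not overlap for 1 member (Odam), against 60.9% of all tested genes (31.8% higher and 29.1% lower).

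**Figure D1:**
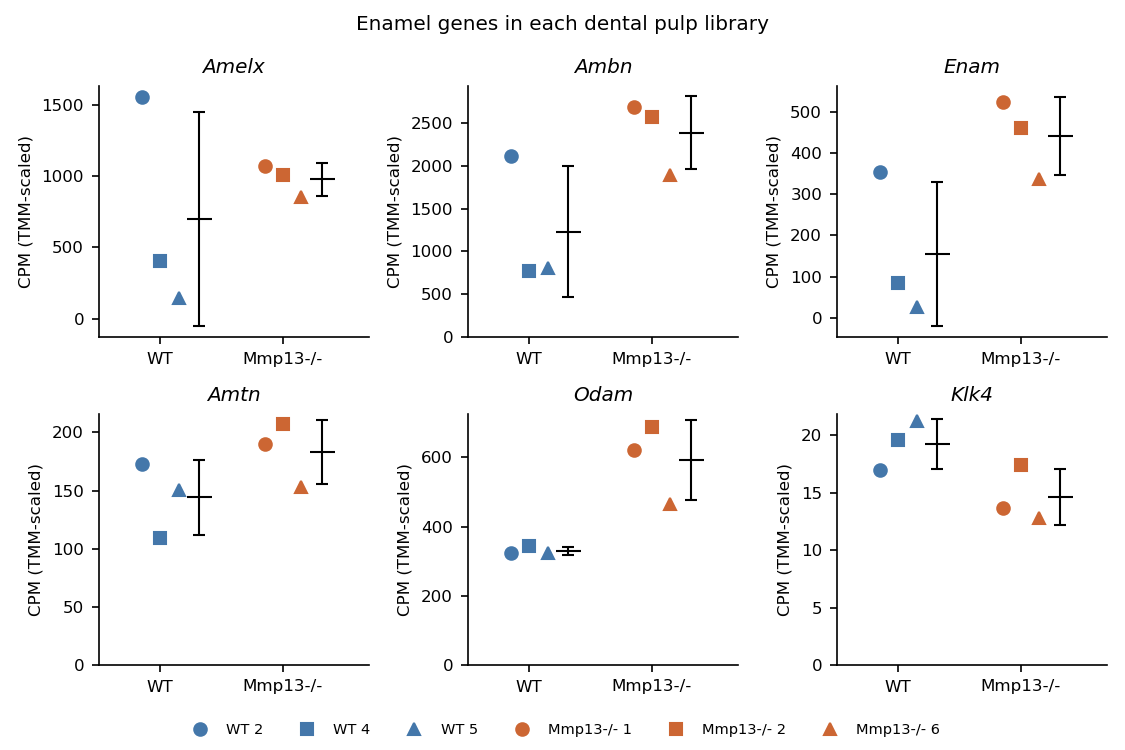
TMM-scaled counts per 1000000 (CPM) of the 6 members in each library, WT in blue and Mmp13-/- in orange, with the marker shape giving the replicate and the black bar the mean ± SD (n = 3 per genotype). WT 2 sits with the Mmp13-/- libraries for Amelx, Ambn and Enam, and the genotypes separate fully for Odam only.

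Amelx encodes amelogenin, the most abundant protein of forming enamel. It had 44925, 11787 and 3847 estimated counts in WT 2, 4 and 5, and 33764, 30103 and 14663 in Mmp13-/- 1, 2 and 6. As counts per 1000000, scaled for library composition by TMM (CPM), these were 1551, 405 and 140 in WT against 1072, 1006 and 849 in Mmp13-/-. WT 2 was the highest of all 6 libraries and WT 4 and 5 were the lowest, so the Mmp13-/- values lay inside the WT range. The log2 fold change was 0.48 ± 0.64 (SE, adjusted p = 0.557, edgeR). Without WT 2 it was 1.76 with an adjusted p of 0.0081, and without WT 5 it was -0.08 with an adjusted p of 0.907, so the call and the direction each turned on a single WT library.

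Ambn encodes ameloblastin, a secreted protein that takes part in the attachment of ameloblasts to the matrix. Its counts were 61114, 22616 and 22243 in WT 2, 4 and 5, with 84732, 77014 and 32765 in Mmp13-/- 1, 2 and 6. The CPM were 2110, 778 and 812 in WT against 2690, 2573 and 1898 in Mmp13-/-. All 3 Mmp13-/- libraries were above WT 4 and WT 5, and WT 2 was above Mmp13-/- 6. The log2 fold change was 0.95 ± 0.39 (SE, a fold of 1.94), and its adjusted p of 0.0616 (edgeR) missed the threshold. Without WT 2 the log2 fold change was 1.51 with an adjusted p of 0.00429, and without Mmp13-/- 6 it was 1.10 with an adjusted p of 0.0453. Over all 16 alternatives it was above 0 throughout, and 9 of them put its adjusted p under 0.05, in a range from 0.00429 to 0.25.

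Enam encodes enamelin, the largest of the matrix proteins, needed for the mineral ribbons of the secretory stage. Its counts were 10226, 2438 and 741 in WT 2, 4 and 5, with 16486, 13783 and 5830 in Mmp13-/- 1, 2 and 6. The CPM were 353, 83.9 and 27.1 in WT against 523, 461 and 338 in Mmp13-/-. WT 2 lay just above Mmp13-/- 6, while WT 4 and 5 lay far below every Mmp13-/- library. The log2 fold change of 1.51 ± 0.69 (SE) had the largest size and the largest error among the 6, with an adjusted p of 0.0929 (edgeR). It was 2.92 without WT 2, with an adjusted p of 0.00107, and 0.94 without WT 5, with an adjusted p of 0.143.

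Amtn encodes amelotin, a maturation-stage protein of the layer between the ameloblast and the enamel surface, also made by the junctional epithelium that seals the gum to the tooth. Its counts were 4996, 3182 and 4128 in WT 2, 4 and 5, with 5975, 6200 and 2638 in Mmp13-/- 1, 2 and 6. The CPM were 173, 109 and 151 in WT against 190, 207 and 153 in Mmp13-/-. The 2 highest values were Mmp13-/- libraries, and Mmp13-/- 6 fell within the WT range. The log2 fold change was 0.35 ± 0.20 (SE, adjusted p = 0.179, edgeR), and leaving out single libraries gave 0.14 to 0.47.

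Odam encodes the odontogenic ameloblast-associated protein, found beside amelotin in maturation-stage and junctional epithelium. Its counts were 9372, 9978 and 8832 in WT 2, 4 and 5, with 19613, 20614 and 8033 in Mmp13-/- 1, 2 and 6. The CPM were 324, 343 and 322 in WT against 623, 689 and 465 in Mmp13-/-. Every Mmp13-/- library was above every WT library, and the WT values lay within a factor of 1.07 of each other. Odam rose 1.80-fold (log2 fold change 0.85 ± 0.20 (SE), adjusted p = 0.00552, edgeR). It no longer passed the adjusted p without WT 5 (0.76, adjusted p = 0.0535) and with a correction for GC content (0.19, adjusted p = 0.306). At 41.1%, the exons of Odam had the lowest G and C content of the members.

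Klk4 encodes kallikrein-related peptidase 4, the serine protease that clears enamel matrix in the maturation stage. Its counts were 491, 570 and 582 in WT 2, 4 and 5, with 430, 521 and 221 in Mmp13-/- 1, 2 and 6. The CPM were 17.0, 19.6 and 21.3 in WT against 13.6, 17.4 and 12.8 in Mmp13-/-. Mmp13-/- 2 lay just above WT 2, and the other values did not cross. The log2 fold change was -0.40 ± 0.17 (SE, adjusted p = 0.0696, edgeR). It turned to 0.26 with the GC correction (adjusted p = 0.159), and the exons of Klk4 had the highest G and C content of the members, 54.4%.

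**Figure D2:**
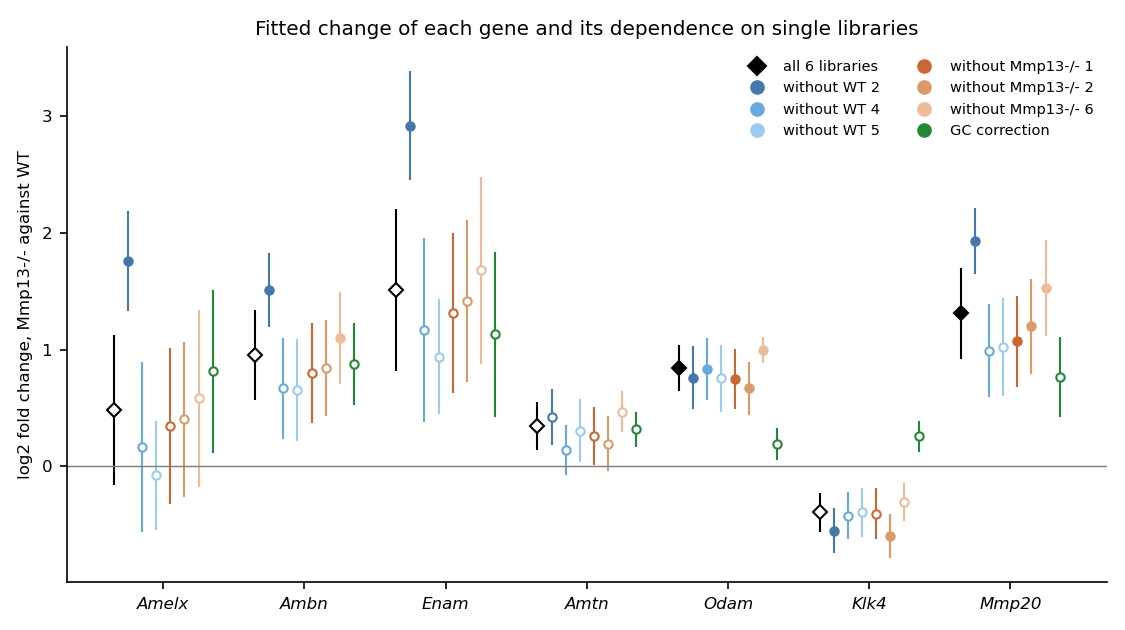
Log2 fold change of Mmp13-/- against WT for the 6 members and Mmp20, from edgeR, with bars of ± 1 SE. Diamonds use all 6 libraries, circles leave out the library named or correct for GC content, and filled symbols have an adjusted p under 0.05. Without WT 2, Amelx moves from 0.48 to 1.76 and Enam from 1.51 to 2.92.

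The secretory-stage genes were far more variable among WT libraries than most genes. The highest WT CPM was 13.1 times the lowest for Enam, 11.1 times for Amelx and 2.71 times for Ambn. The SD of log2 CPM over the 3 WT libraries was 1.86 for Enam and 1.74 for Amelx, each higher than in 99.9% of the 10137 genes with a mean of 10 CPM or more, where the median was 0.148. For Ambn it was 0.81, higher than in 99.2% of these genes. Such a spread was not particular to the members, since Mmp20 (0.87, 99.5%) and the odontoblast gene Dspp (0.85, 99.4%) spread more than Ambn. Amtn (0.34, 88.5%) was intermediate, Klk4 (0.16, 56.3%) was near the middle, and Odam (0.05, 8.42%) was among the least variable. In Mmp13-/- the 6 genes spread by 1.26 to 1.55 times from lowest to highest, at percentiles of 39.7% to 82.6%, where the median SD was 0.202. Amelx thus had a log2 SD of 1.74 over WT and 0.17 over Mmp13-/-. With 3 libraries a genotype, this difference in spread was not tested.

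**Figure D3:**
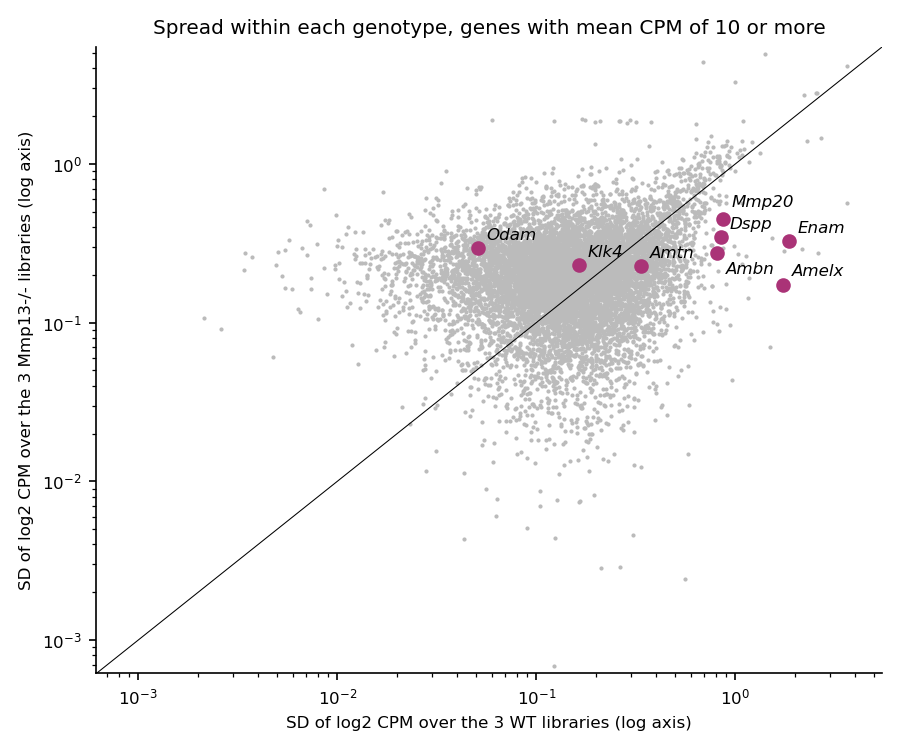
SD of log2 CPM over the 3 WT libraries (x axis) and over the 3 Mmp13-/- libraries (y axis), both on log axes, for 10137 genes with a mean of 10 CPM or more (grey), with the members, Mmp20 and Dspp named. The line marks equal spread. Enam (1.86 and 0.33) and Amelx (1.74 and 0.17) lie to the right of nearly all genes, and Odam (0.05 and 0.29) to the left of most.

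Levels were compared between members per kilobase of merged exon. In WT the mean CPM per kb was 700 ± 750 (SD, n = 3) for Amelx, 643 ± 396 for Ambn, 240 ± 8.51 for Odam, 141 ± 31.3 for Amtn, 28.2 ± 31.7 for Enam and 15.4 ± 1.73 for Klk4. In this order Amelx and Ambn, Ambn and Odam, and Enam and Klk4 did not differ beyond their spread (the sum of the SDs). In Mmp13-/- the order was Ambn at 1244 ± 223, Amelx at 977 ± 114, Odam at 430 ± 83.5, Amtn at 179 ± 27.2, Enam at 80.2 ± 17.2 and Klk4 at 11.7 ± 1.96, and the first neighbours alone did not differ beyond their spread. All 3 Mmp13-/- libraries had the members in the same order, and the 3 WT libraries had 3 different orders. In WT 5 Amelx was the fourth, below Ambn, Odam and Amtn.

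Each gene's CPM per kb was divided by that of Ambn in the same library to see which genes moved with it. For Amelx the ratio was 1.41, 1.0 and 0.332 in WT 2, 4 and 5, with 0.765, 0.751 and 0.860 in Mmp13-/- 1, 2 and 6. For Enam it was 0.0585, 0.0377 and 0.0116 in WT against 0.0680, 0.0626 and 0.0622 in Mmp13-/-. Both were lowest in WT 5, so in that library Amelx and Enam were low even against Ambn. Mmp20 kept closer to Ambn, with ratios of 0.0228, 0.0201 and 0.0227 in WT against 0.0313, 0.0284 and 0.0245 in Mmp13-/-. Every Mmp13-/- ratio of Mmp20 was still above every WT ratio. Dspp, the main dentin matrix gene of odontoblasts, also kept closer to Ambn. Its ratios were 0.338, 0.292 and 0.387 in WT against 0.377, 0.408 and 0.359 in Mmp13-/-, and the genotypes overlapped. Klk4 went another way, with 0.0124 in WT 2 and 0.00779 to 0.0104 in Mmp13-/-, against 0.0387 and 0.0402 in WT 4 and 5. For Odam the ratio was 0.214 in WT 2, 0.615 and 0.554 in WT 4 and 5, and 0.323, 0.373 and 0.342 in Mmp13-/- 1, 2 and 6. These ratios share the count of Ambn and are given as a description.

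**Figure D4:**
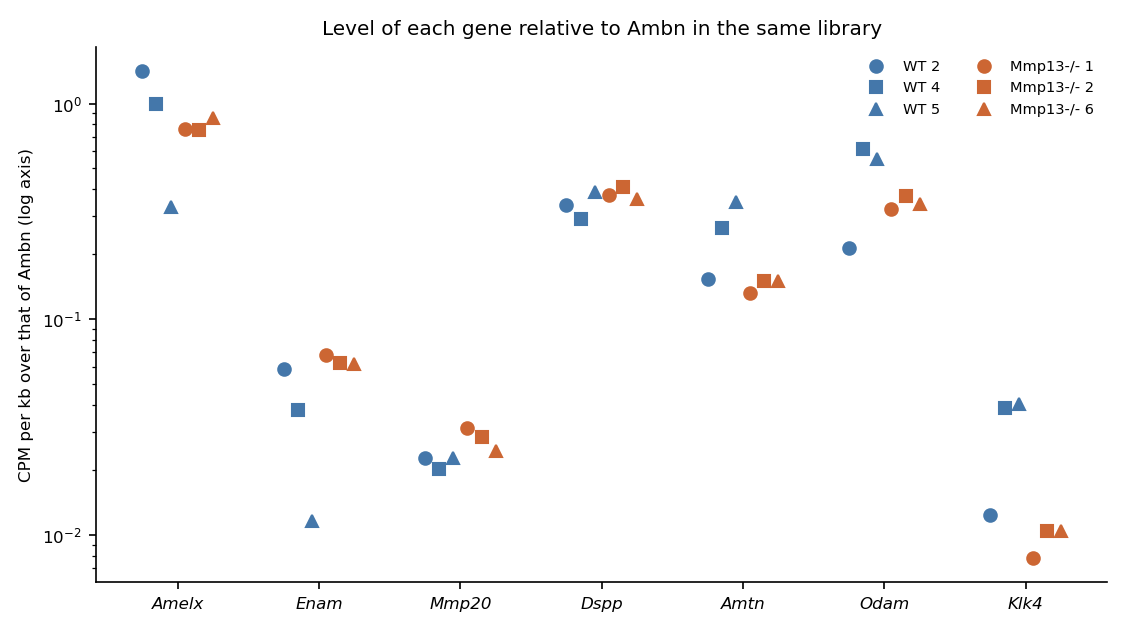
CPM per kb of each gene divided by that of Ambn in the same library, on a log axis, WT in blue and Mmp13-/- in orange. Mmp20 (0.0201 to 0.0313) and Dspp (0.292 to 0.408) stay close to Ambn in all 6 libraries, while Amelx and Enam fall in WT 5. For Mmp20 every Mmp13-/- ratio lies above every WT ratio.

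Other genes of enamel formation were mostly lower in Mmp13-/-, with 19 of 28 lower and 4 higher at an adjusted p under 0.05 and any fold. The list, without the members, covers proteases and secreted proteins, genes of inherited enamel defects, ion transporters and transcription factors. All 28 genes were tested and 14 were called, 3 higher and 11 lower. Over all tested genes 24.3% were lower and 27.3% higher at that adjusted p and any fold. With the change over 2-fold, 20.4% were called higher and 9.68% lower. The median log2 fold change of the 28 was -0.80, against 0.10 over all genes, with 5 above 0 and 23 below. Under the GC correction 3 were called, 2 higher and 1 lower, with a median of -0.43 against 0.22 over all genes. With upper-quartile factors 9 were called, 3 higher and 6 lower.

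Mmp20, the matrix protease of the secretory stage, followed Ambn. Its CPM were 82.2, 26.8 and 31.6 in WT 2, 4 and 5, with 144, 125 and 79.7 in Mmp13-/- 1, 2 and 6. WT 2 lay just above Mmp13-/- 6, so the genotypes overlapped. Mmp20 rose 2.48-fold (log2 fold change 1.31 ± 0.39 (SE), adjusted p = 0.0182, edgeR). The call was lost without WT 4, without WT 5 and with the GC correction (adjusted p = 0.0751, 0.0697 and 0.114).

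Scpppq1, a small secreted protein of the same phosphoprotein family that mature ameloblasts and junctional epithelium make, was lower in Mmp13-/-, where Odam was higher. It is listed under the symbol Gm17660. Its CPM were 40.3, 50.2 and 50.5 in WT 2, 4 and 5, with 15.7, 16.5 and 12.7 in Mmp13-/- 1, 2 and 6. Every WT library was above every Mmp13-/- library, and Scpppq1 fell by 1.64 ± 0.16 on the log2 scale (SE, adjusted p = 9.52e-05, edgeR). It stayed past the threshold in all 16 alternatives, between -1.82 and -1.35.

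The 10 genes listed for enamel defects in people or mice left out the members, of which none was called. They also left out Mmp20, which was called higher. Of these 10 listed genes, 6 were called and all 6 were lower, against 9.68% called lower over all tested genes. They were Col17a1, a hemidesmosome collagen (log2 fold change -1.46), Relt, a member of the TNF receptor family (-1.36), Stim1, the calcium sensor of the endoplasmic reticulum (-1.26), Fam83h, a keratin-binding cytoplasmic protein (-1.22), Cnnm4, a metal ion transporter (-1.15), and Slc24a4, a calcium exchanger of maturing ameloblasts (-1.12). Fam20a, a partner of the secretory-pathway kinase Fam20c, fell by 1.05 on the log2 scale. Fam20c itself fell by 0.91 (adjusted p = 0.000752, edgeR), and Lamb3, a laminin chain of epithelial basement membrane, fell by 0.88 (adjusted p = 0.002), both under 2-fold. With the GC correction none of these changes reached 2-fold. Col17a1 was then at -0.59, Relt at -0.51, Stim1 at -0.60, Cnnm4 at -0.48 and Slc24a4 at -0.65, with adjusted p of 0.00223 to 0.047, while Fam83h (-0.11, adjusted p = 0.765), Fam20a (-0.29, 0.206), Fam20c (-0.01, 0.932) and Lamb3 (-0.13, 0.42) no longer passed. Fam20c and Lamb3 also missed the threshold with total counts (adjusted p = 0.058 and 0.0955). Stim1, Col17a1 and several others in this group are used by many cell types besides ameloblasts.

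Ion transport genes were split. Car2 and Car6, carbonic anhydrases that supply bicarbonate to maturing enamel, rose by log2 fold changes of 1.08 and 1.55, although Car6 had no more than 10.4 CPM in any library. Car2 missed the threshold without WT 2 (0.82, adjusted p = 0.0693) and without Mmp13-/- 1 (0.75, adjusted p = 0.0537). Cftr, a chloride channel, rose by 0.74 (adjusted p = 0.00237, edgeR), under 2-fold. Slc4a2, an anion exchanger, fell by 1.09 on the log2 scale. Of the transcription factors of the dental epithelium, Tbx1 fell by 1.77 on the log2 scale (adjusted p = 0.000121, edgeR), and Dlx3 by 0.98 (adjusted p = 0.00261), under 2-fold. With the GC correction Cftr (0.11, adjusted p = 0.593), Slc4a2 (-0.15, 0.257) and Dlx3 (-0.19, 0.45) no longer passed, and Tbx1 was at -0.62 (adjusted p = 0.0132).

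**Figure D5:**
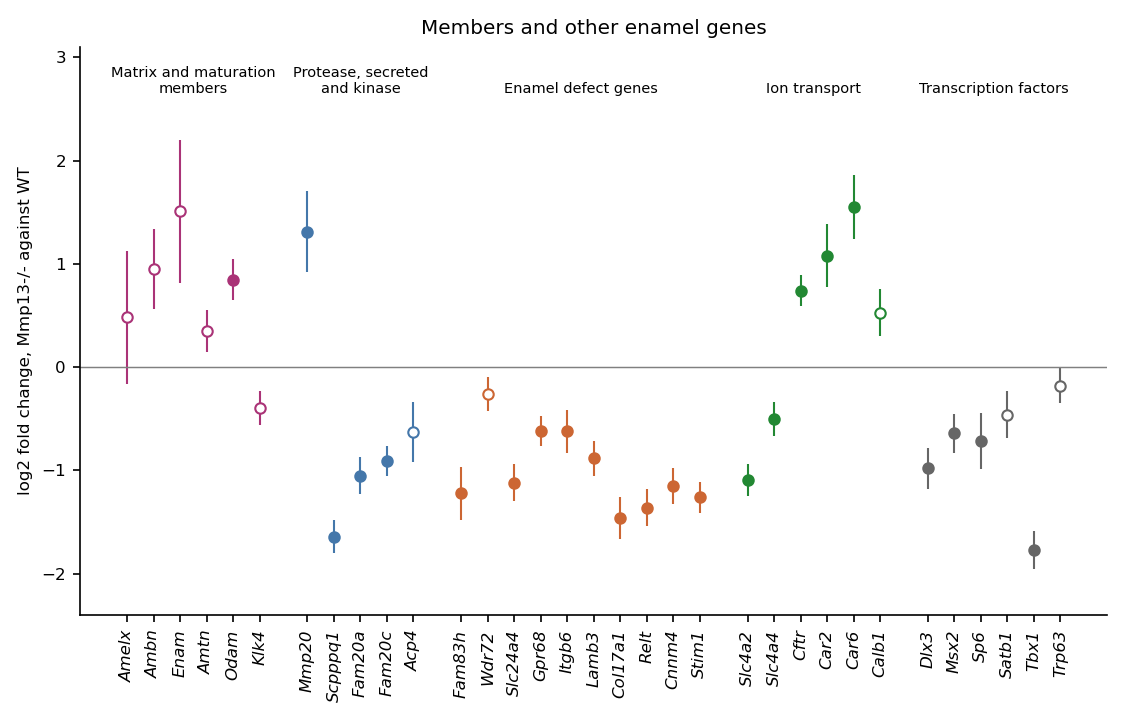
Log2 fold change of Mmp13-/- against WT with ± 1 SE for the 6 members and 27 other enamel genes, grouped by role, from edgeR. Filled circles have an adjusted p under 0.05. Of the 27 other genes drawn, 22 lie below 0, while 5 of the 6 members and Mmp20 lie above it.

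Markers of other cells differed between libraries as well. General epithelial keratins and junction genes (15 genes) summed to 2293, 4609 and 4371 CPM in WT 2, 4 and 5, and to 2303, 1281 and 2066 in Mmp13-/- 1, 2 and 6. WT 2, the WT library with high Amelx, Ambn and Enam, was thus the lowest of the WT libraries for these genes. Krt14 and Krt5, keratins of basal epithelial cells, fell by 1.33 and 1.31 on the log2 scale, but with the GC correction they were at -0.43 and -0.44 (adjusted p = 0.281 and 0.191, edgeR). Perp, a desmosome protein, had a log2 fold change of 0.18 (adjusted p = 0.648). In the list of 15, 1 gene was called higher and 2 lower, and each was detected in every library. Oral mucosa genes (10 genes, 1 called higher and 2 lower) summed to 5251, 9208 and 18890 CPM in WT against 15450, 4036 and 10810 in Mmp13-/-. Krt4, Krt13 and Krt6a, keratins of oral lining epithelium and of epithelium under stress, had log2 fold changes of -0.20, 0.17 and -0.51 with adjusted p of 0.814, 0.838 and 0.263. The level of mucosa genes did not separate the genotypes.

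Odontoblast genes (9 genes, 3 called higher and 2 lower) summed to 37160 to 44750 CPM in WT against 11000 to 13840 in Mmp13-/-, most of it from Col1a1, the main collagen of dentin and bone, which fell by 2.16 on the log2 scale. Alpl, the phosphatase of mineralizing cells, fell by 0.68 (adjusted p = 0.0134, edgeR), and was at 0.13 with the GC correction (adjusted p = 0.551). Dspp, in contrast, had the pattern of Ambn, with 1646, 524 and 725 CPM in WT 2, 4 and 5 and 2341, 2422 and 1571 in Mmp13-/- 1, 2 and 6. Its log2 fold change was 1.13 ± 0.40 (SE, adjusted p = 0.037). It ranged from 0.79 to 1.69 without single libraries and missed the threshold without WT 4, WT 5, Mmp13-/- 1 or Mmp13-/- 2 (adjusted p = 0.153, 0.149, 0.0813 and 0.077) and with DESeq2 (0.0639). Salivary gland genes (7 genes, of which 3 passed the filter, 1 called higher) summed to 5.63 to 7.36 CPM in WT, 9.24 and 17.7 in Mmp13-/- 1 and 2 and 142 in Mmp13-/- 6. Muc19, a salivary mucin, rose by 6.79 on the log2 scale and made up most of the sum in Mmp13-/- 6, and without that library its log2 fold change was 3.22. Amy1, an amylase, rose by 0.85 (adjusted p = 0.0185, and 0.7 with the GC correction, where it was at 0.15), and Aqp5, a water channel, had a log2 fold change of 0.98 (adjusted p = 0.302). Smr2 was at 0 in all WT libraries, and Smr3a and Prol1 were at 0 in 2 of them. Skeletal muscle genes (8 genes, 6 called lower) summed to 95030 to 111300 CPM in WT against 25500 to 56450 in Mmp13-/-, with Acta1 and Myh1, of the muscle fibre, lower by log2 fold changes of -1.88 and -1.40, and Ttn, titin, at -0.87 (adjusted p = 0.10). The part of these markers in the members' values was not tested.

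Genes with the pattern most like that of the members were sought over the 6 libraries, with the mean of the members' standardized log2 CPM as the reference. The highest Pearson correlations among 24528 other genes were those of Ghr, Xk, Fam3c, Metap1d, Eci2, Bloc1s5, Mat2b, CT009757.4, Mir133a-1hg and Gm44220, from 0.990 to 0.997, and 213 genes were above 0.95. Mmp20 ranked 120 (0.961) and Dspp 150 (0.958). Krt14 lay at -0.931. Of the members, Ambn was closest to their own mean (0.964) and Klk4 farthest (-0.558). With each genotype's mean subtracted, the highest were Stt3a, Rbm12b2, Fam3c, Filip1, Ghr, Pias1, Pdp2, Klhl15, Gstt1 and Cmbl, and 398 genes were above 0.95. With 6 libraries that also differ in depth and composition, these values are a description of order only.

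Genes within 500 kb of each member were examined for changes beside it, where 30.1% of all tested genes were called, 20.4% higher and 9.68% lower. With 4 to 37 tested genes near each member, these counts are a description. Within 500 kb of Ambn, 8 tested genes besides the members included 2 called, both higher. They were Jchain (log2 fold change 2.73), the joining chain of secreted antibodies, and Gm42911 (2.98, from 0.042 CPM in WT to 0.41 in Mmp13-/-). The same pair was called near Enam and Amtn. Near Odam 2 of 4 were called, Csn2, a milk casein, and Gm7337. Both were at 0 in every WT library and averaged 0.747 and 0.874 CPM in Mmp13-/-. Near Amelx 1 of 4 was called, BC022960 (1.50, from 0.33 CPM in WT to 0.93 in Mmp13-/-). Arhgap6, in which Amelx lies, had 0.18 ± 0.18 (SE, adjusted p = 0.409, edgeR). Near Klk4, 9 of 37 were called, 8 higher and 1 lower. Among them, Shank1, a scaffold protein of synapses, fell by 1.79 on the log2 scale, and Zfp719 (1.52), Siglecg (1.45) and Cd33 (1.29), the latter pair being receptors of immune cells, rose. Klk6, a neighbouring kallikrein, rose by 3.47 from levels of 0.0574 CPM in WT to 0.707 CPM in Mmp13-/-. Gm42911, Csn2, Gm7337, BC022960 and Klk6 all averaged under 1 CPM in each genotype. The receptor-gene rates were also higher in Mmp13-/-, and the part of that background in these rises was not tested.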

How the data were processed

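Pulp of WT and Mmp13-/- mice, in 3 samples per genotype, was sequenced by the authors on an Illumina HiSeq, and reads were analysed in Strand-NGS. The deposited table holds estimated counts per Ensembl gene, with fractions where reads were shared, and log2 values that the authors normalized by DESeq size factors with a threshold of 1 and centring on each gene's median. Recomputing the second from the first gave a largest difference of 2.3e-06. The submitters' processing notes name DESeq and the build mm10; the aligner and annotation are not given in the sources used here. RNA extraction is described as TRIzol in the study's methods and as a column kit in the labels, and no batch or date is given.

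Estimated counts were rounded to whole numbers. They were then fitted with edgeR 4.0.16 under R 4.3.3 (quasi-likelihood test, TMM factors, filterByExpr by genotype, Benjamini-Hochberg over all genes tested). A gene was called at an adjusted p under 0.05 and a change over 2-fold. SD and p-values measure the spread over 3 samples per genotype. CPM are counts per 1000000 of TMM-scaled library size, and log2 CPM used a prior count of 2. Alternatives used RLE, upper-quartile or no factors, no filter or at least 10 counts in every sample, DESeq2 1.42.0, limma 3.58.1 on the deposited log2 values, the study's unmoderated test with Storey q, a loess GC correction, subtraction of the receptor-gene rate, and leaving out each library. The study's further cut at an unadjusted t-test p under 0.05 was not applied in its alternative. The fits other than the subtraction and the left-out libraries were also run on simulated counts. Those counts had the same dispersion for every gene, so this check does not cover the WT spread of the members. Positions, lengths and GC content came from GENCODE M21 on GRCm38, which held 99.8% of the table's genes, and promoter sequences from RefSeq for all 6 members.

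The members and lists were chosen with earlier results of these data known. The text names all members, Mmp13, Mmp20, every called gene and the 4 uncalled genes with the smallest adjusted p of the enamel lists, the 3 genes of highest mean CPM in each marker list, the 10 genes most like the members, and up to 5 called genes within 500 kb of each. Of the enamel lists, 1 gene is counted but not reported here.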

Additional observations from a re-analysis of the deposited data

How the results depend on the processing

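No paired analysis was possible because the genotypes share a single replicate number. All 16 alternatives kept the direction of Ambn, Enam, Amtn, Odam and Mmp13, and Mmp13 stayed past the threshold in each. Leaving out single libraries gave log2 fold changes of -0.0787 to 1.76 for Amelx, 0.65 to 1.51 for Ambn, 0.94 to 2.92 for Enam, 0.67 to 0.995 for Odam and -0.60 to -0.31 for Klk4. Ambn passed the adjusted p with upper-quartile factors (1.15), total counts (1.10), no filter (0.85) and at least 10 counts in every sample (1.07). It also passed with background subtraction (1.11), limma (1.04) and the Storey q of the study's test (1.04). Enam passed with total counts (1.66), no filter (1.41), limma (2.16) and that q (2.16). Amtn passed with upper-quartile factors (0.55) and background subtraction (0.51). Klk4 passed with no filter (-0.50), limma (-0.47) and that q (-0.47). The study also asked for an unadjusted t-test p under 0.05, a cut left out of the alternative here. Ambn, Enam and Klk4 did not meet it, with unadjusted p of 0.103, 0.118 and 0.0581. With the GC correction Odam lost the threshold (0.19) and Klk4 turned (0.26). Members called numbered 0 to 3 over the 16 alternatives, highest without WT 2. The cause of these changes was not tested. Genes called numbered 14325 with no filter, 4666 with at least 10 counts in every sample and 4755 with the GC correction. The other enamel genes called numbered 9 with upper-quartile factors and 3 with the GC correction. Per kilobase of the longest transcript, Amelx in Mmp13-/- was at 1160 CPM per kb. The median log2 fold change of all tested genes moved from 0.10 to 0.32 with upper-quartile factors, 0.22 with total counts or the GC correction, and 1.30 with no filter.

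Over 32 other named genes, 469 of 510 values kept direction and side, 26 lost the threshold, 3 gained it and 12 turned. Those that turned were Krt4 with upper-quartile factors (0.0325), with the GC correction (0.53) and between -0.79 and 0.65 without single libraries, Krt13 between -0.39 and 0.95, Perp between -0.16 and 0.38 and Aqp5 between -0.16 and 1.60 without single libraries, and Krt6a (0.17) and Alpl (0.13) with the GC correction. With 3 libraries a genotype, the WT spread of Amelx and Enam limits what can be detected. Limits from depth were not tested.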

Other observations

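The genes given here were picked after their values were seen. Acp4 and Sp6, enamel genes outside the rule for named genes, were also highest in WT 2 among the WT libraries. Acp4, an acid phosphatase of secretory ameloblasts, had 51.3, 25.1 and 23.2 CPM in WT 2, 4 and 5, and 24.0, 23.2 and 17.1 in Mmp13-/- 1, 2 and 6. Sp6, a transcription factor of the dental epithelium, had 102.7, 62.2 and 47.7 CPM in WT and 51.6, 45.0 and 32.4 in Mmp13-/-. Unlike Amelx, Ambn and Enam, both were at or below WT 4 levels in the Mmp13-/- libraries. Phex, a peptidase of odontoblasts and osteocytes, had 157, 71.3 and 83.1 CPM in WT and 351, 391 and 259 in Mmp13-/-. Within each genotype its libraries had the order seen for Dspp, but unlike those of Dspp its genotypes did not overlap. Car2 was lowest in WT 2 among all libraries, at 32.4 CPM against 48.3 and 54.2 in WT 4 and 5.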
